A study of Homo sapiens with 6 samples.

Results

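The genes described here are the ligands and receptors of the tumor necrosis factor (TNF) superfamily in 143B cells, a human osteosarcoma line, with and without a deletion of CNTNAP4. Members were taken by symbol, as every gene named TNFRSF or TNFSF with a number and at most 1 following letter, together with TNF, LTA, LTB, LTBR, CD40 and CD70. This rule found 38 of the 54308 genes in the deposited table, of which 15 were ligands and 23 were receptors. The vector control (VC) group held 3 libraries of 143B cells transfected with vector plasmid, and the knockout (KO) group held 3 libraries of 143B cells transfected with a plasmid for CRISPR/Cas9 deletion of CNTNAP4. The labels give 48 h of transfection for both groups, while the methods give a longer incubation before sorting. The plasmid carries Cas9 and red fluorescent protein, red cells were sorted into single-cell colonies, and the RNA samples were taken independently from clonal cells. How many clones stand behind the 3 samples of a group is not given in the sources used here, so deletion and clone cannot be told apart, and the p-values measure the spread between these RNA samples, which may be technical.

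TNF superfamily ligands are mostly trimeric proteins held in the cell membrane or shed from it, and each is bound by receptors with cysteine-rich repeats outside the cell. Some receptors carry a death domain and can start apoptosis, others bind TRAF adaptor proteins and feed the NF-kB and MAP kinase pathways, and decoy receptors bind a ligand without passing a signal on. In bone, the ligand RANKL (TNFSF11), its receptor RANK (TNFRSF11A) and its soluble decoy osteoprotegerin (TNFRSF11B) set the formation of osteoclasts, the cells that resorb bone. Other members, such as 4-1BB (TNFRSF9) and CD70, are best known from the co-stimulation of lymphocytes.

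The values are log2 signals that were quantile-normalized between libraries, so a negative value is a low linear signal and not a loss. The number of reads behind a value is unknown, and an empty cell means that a gene had no value in that library. Each library held values for 20333 to 21041 genes. Members measured were 31, 30 and 35 in the 3 VC libraries, in replicate order, and 31, 30 and 33 in the 3 KO libraries. The deleted gene, CNTNAP4, was measured in a single library (VC replicate 3, -7.18), so its level could not be used to check the labels. All 9 mesenchymal and osteoblast lineage markers had 6 values, with a summed linear signal of 1439 to 1614 in VC and 1737 to 2152 in KO. The sum of 11 immune cell markers was 3.32 to 3.47 in VC and 4.42 to 4.82 in KO, and MS4A1 had no value in any library. The sum of endothelial cell markers was 0.0342 to 0.0760 in VC and 0.0682 to 0.112 in KO. Epithelial cell markers summed to 3.10 to 3.53 in VC and 1.91 to 2.34 in KO. The sum of 4 osteoclast markers was 0.729 to 0.999 in VC and 3.85 to 11.3 in KO. Its markers did not move together. In log2 signal, KO minus VC was 4.22 for OSCAR, -1.69 for CTSK and 0.031 for ACP5, and CALCR had a value in 2 KO libraries alone. The part of other cell types in the results was not tested, and in bulk RNA fewer cells of a type and less RNA per cell cannot be told apart.

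**Figure D1:**
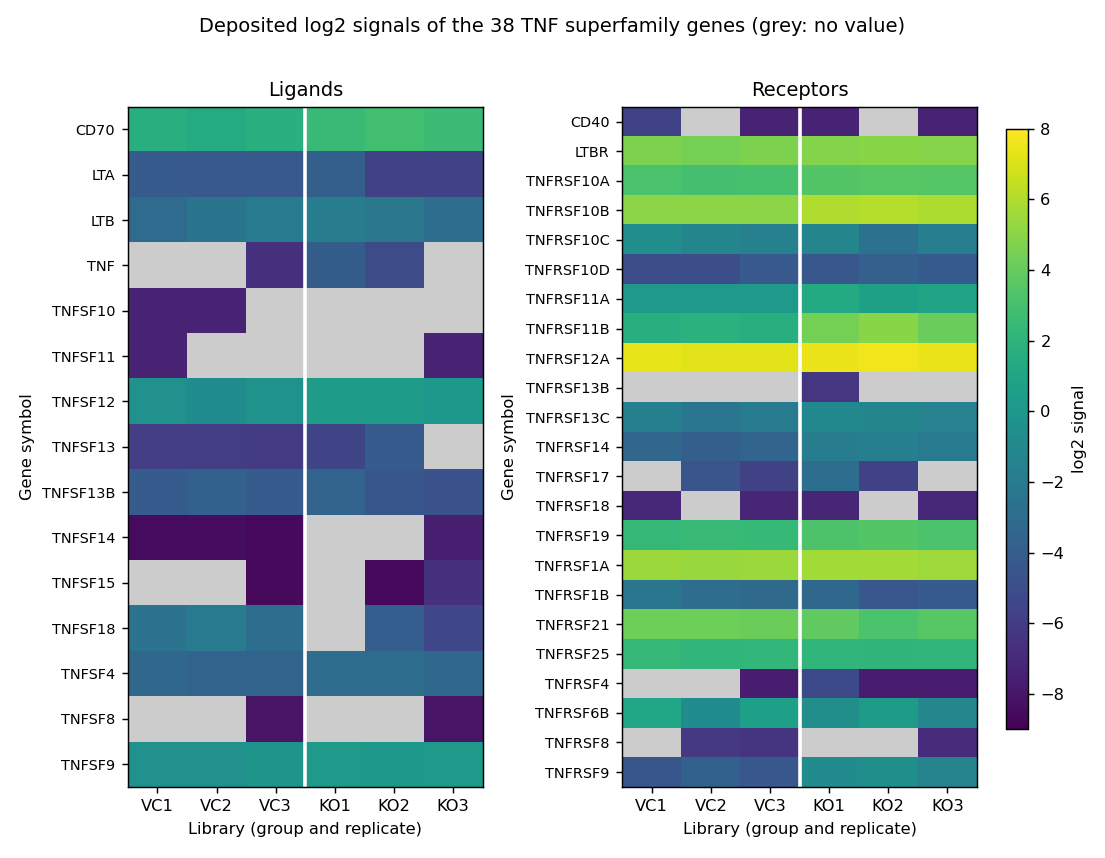
Log2 signal of the 38 members in each of the 6 libraries (columns, 3 VC and 3 KO), with ligands and receptors in separate panels and grey cells where a library has no value. The receptors TNFRSF9 and TNFRSF11B differ between VC and KO by eye, and grey cells occur in 14 of the 38 members.

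Of the 38 members, 29 had at least 2 values in each group and were tested (limma's moderated test, with adjustment by the Benjamini-Hochberg method over all 19306 genes tested). In KO, 12 members were higher and 2 were lower at an adjusted p under 0.05, which is 41.4% and 6.9% of those tested. Over all genes tested, the same rule called 32.9%, with 13.1% higher and 19.8% lower in KO. The median log2 fold change, always given as KO minus VC, was 0.39 over the tested members and -0.13 over all tested genes. At an unadjusted p under 0.05, 16 members were higher and 3 were lower, beside 17.8% and 30% of all tested genes. Among the 24 members with 6 values, the groups did not overlap for 17, or 70.8%, with 15 of them higher in KO. Among all genes with 6 values, the groups of 59.3% did not overlap, and 22.6% were higher in KO without overlap. With only 3 against 3, the smallest two-sided p an exact permutation test can give is 0.1, so no single gene could pass 0.05 by that test.

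By role, 3 of 9 tested ligands were higher and 1 was lower, and 9 of 20 tested receptors were higher and 1 was lower. Beside these and the following counts stand 13.1% higher and 19.8% lower over all tested genes. Each class held few genes, and differences between classes were not tested. The 5 death domain receptors split into 2 higher, 1 lower and 2 not called. Of the 4 decoy receptors, 1 was higher and 3 were not called. The other 14 receptors, which mostly signal through TRAF proteins, had 11 tested, with 6 higher and 5 not called. A change of at least 2-fold was reached by 4 of the higher members, TNFRSF9, TNFRSF11B, TNFRSF14 and CD70, and by 1 of the lower members, TNFSF18. Over all tested genes, 4.1% were called higher and 5.43% lower by at least 2-fold.

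**Figure D2:**
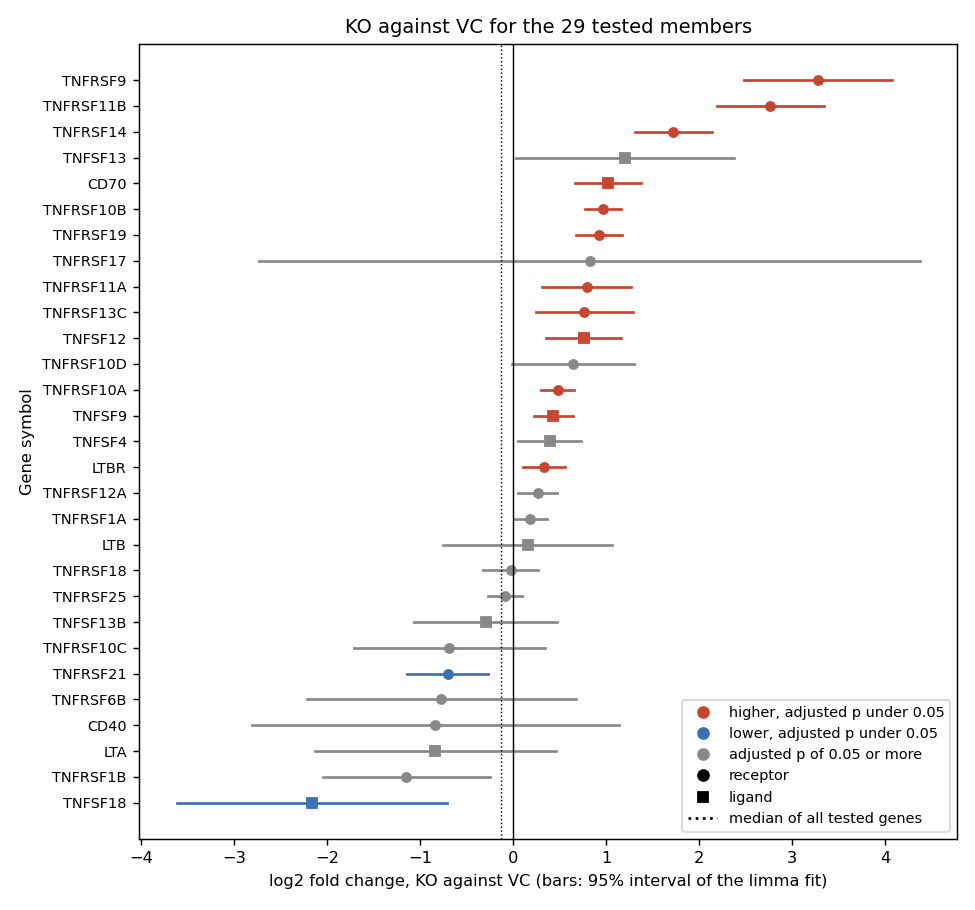
Log2 fold change (KO minus VC) of the 29 tested members with its 95% interval, circles for receptors and squares for ligands, red for higher, blue for lower and grey for not called. Most members lie to the right of the dotted line, which marks the median of all tested genes at -0.13, and TNFRSF9 and TNFRSF11B lie farthest to the right.

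The change farthest from 0 among the members was in TNFRSF9, which encodes 4-1BB (CD137), a co-stimulatory receptor of activated T cells. Its log2 signal was -4.47, -3.70 and -4.40 in VC and -0.77, -0.55 and -1.43 in KO, given here and from here on in the order of the replicates. The groups lay far apart, and every KO library exceeded every VC library. The difference was 3.28 ± 0.32 (SE, n = 3 per group), or 9.69-fold higher in KO, with an adjusted p of 0.00789. Its ligand TNFSF9 (4-1BBL) was higher as well, by a smaller margin. TNFSF9 had -0.37, -0.39 and -0.19 in VC and 0.13, 0.08 and 0.14 in KO, a difference of 0.43 ± 0.083 (SE) with an adjusted p of 0.020.

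TNFRSF14 encodes HVEM, the receptor of the ligand LIGHT (TNFSF14). Its signal was -3.37, -3.83 and -3.48 in VC and -1.81, -1.66 and -2.04 in KO, and the groups did not overlap. In KO it was 3.30-fold higher, with a log2 fold change of 1.72 ± 0.17 (SE) and an adjusted p of 0.00789. The gene's antisense transcript TNFRSF14-AS1 had a value in 3 libraries, at -6.98 and -6.48 in VC replicates 1 and 3 and -8.00 in KO replicate 2. The library kit named in the labels keeps the strand, but whether the counting used it is not given in the sources used here. The ligand TNFSF14 was not tested, with -8.47, -8.43 and -8.54 in VC and a single KO value of -7.51 in replicate 3.

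CD70, the ligand of the lymphocyte receptor CD27, was the ligand called higher with the widest difference. It had 1.72, 1.47 and 1.76 in VC and 2.46, 2.87 and 2.68 in KO. The 3 KO libraries were all above the 3 VC libraries, by 1.02 ± 0.14 (SE) or 2.03-fold, with an adjusted p of 0.0114. CD27, which falls outside the rule on symbols, had values in 3 libraries, at -6.95 and -5.43 in VC replicates 1 and 3 and -7.05 in KO replicate 1, and was not tested.

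TNFSF18 encodes GITRL, the ligand of GITR (TNFRSF18), and was one of the 2 members called lower. Its signal was -2.55, -2.04 and -2.87 in VC, -3.89 and -5.41 in KO replicates 2 and 3, and empty in KO replicate 1. The 2 KO values lay below all 3 VC values, and the fit used the 5 values present. The log2 fold change was -2.16 ± 0.54 (SE), or 4.48-fold lower in KO, with an adjusted p of 0.0444. Its receptor TNFRSF18 had -7.08 and -7.15 in VC and -7.17 and -7.11 in KO, with replicate 2 empty in both groups and an adjusted p of 0.882.

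OX40 ligand (TNFSF4), another co-stimulatory ligand, was not called although its groups did not overlap. It had -3.29, -3.60 and -3.51 in VC and -2.94, -3.00 and -3.27 in KO, a difference of 0.39 ± 0.13 (SE) with an adjusted p of 0.0711. Its receptor OX40 (TNFRSF4) had 1 VC value of -7.72 and KO values of -5.16, -7.66 and -7.68, and was not tested.

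**Figure D3:**
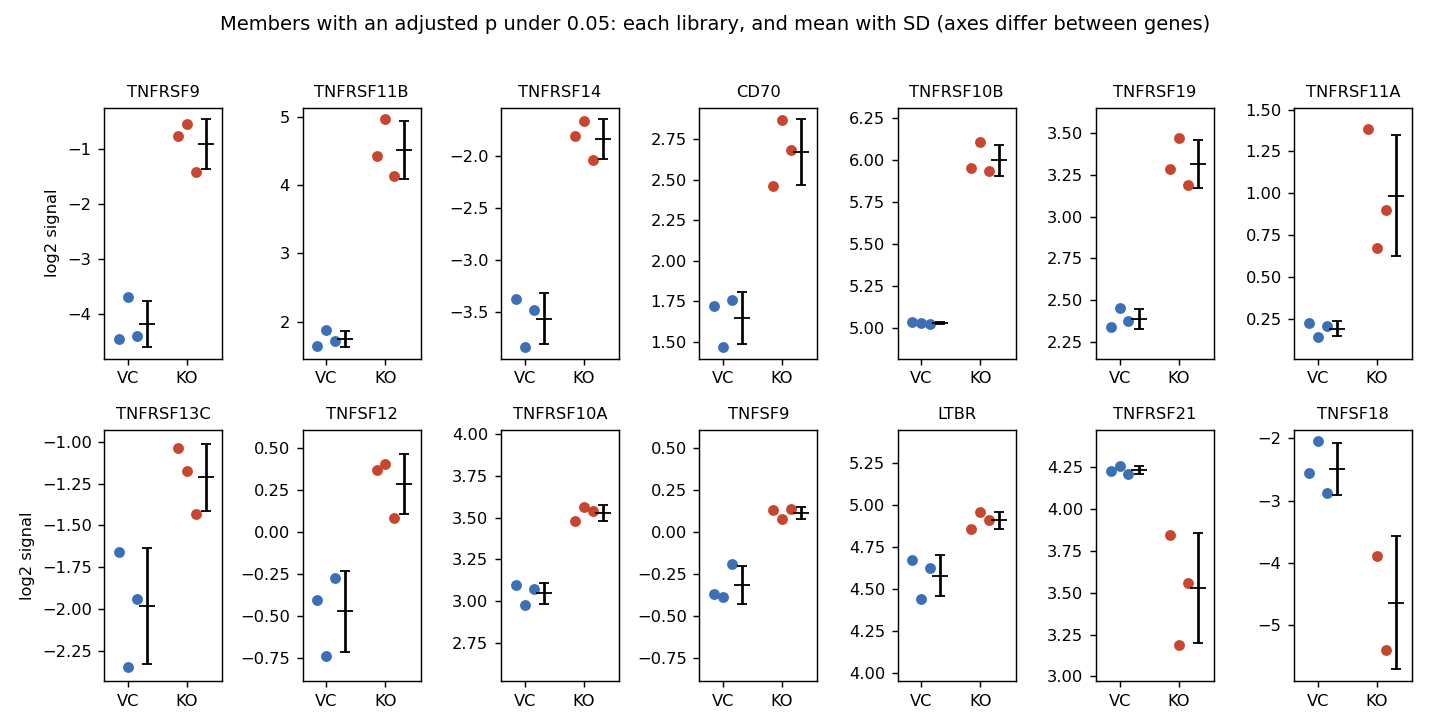
Log2 signal of the 14 called members in each library (dots), with the mean and SD of each group (n = 3, or n = 2 for TNFSF18 in KO), and a separate vertical axis for each gene. In all 14 panels the VC and KO dots do not overlap, and the KO dots are the lower ones in TNFRSF21 and TNFSF18 alone.

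The stretch of DNA just before the start of a gene is where the superfamily genes that respond to NF-kB or AP-1 commonly hold the binding motifs of these factors. RefSeq promoter windows (GRCh38.p14) were matched by symbol for 25 of the 38 members, among them 6 of the 12 higher members. The 250 bases before the start were searched on both strands. The NF-kB consensus motif stood in 10 of the 32 windows of members and in 9.96% of all 35116 windows. By gene, 8 of the 25 members held it, and a share by gene was not computed over all genes. They were the higher members TNFRSF9, TNFRSF14 and TNFRSF19 (3 of 6), LTA, LTB and TNFSF13, which were not called, and TNFSF11 and TNFSF14, which were not tested. The AP-1 motif TGANTCA stood in 4 of the 32 windows of members, which belonged to 3 of the 25 members, and in 6.57% of all windows. A match is a description of the letters and not of binding, and no factor was measured here.

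Windows of 120 bases are shown for 4 members, 5′ to 3′ on the gene's strand and ending at the base before the start, with motif matches in capitals. TNFRSF9 (chr1:7940840-7940959, minus strand) is shown because its change was the widest and its window holds an NF-kB match from base -74 to -64, where matches on both strands overlap, and an AP-1 match from base -44 to -38. TNFRSF14 (chr1:2556251-2556370, plus strand) is another higher receptor and has overlapping NF-kB matches from base -86 to -75. LTB (chr6:31582426-31582545, minus strand) holds an NF-kB match from base -86 to -77, and its signal was not called. TNFRSF21 (chr6:47309906-47310025, minus strand) is the receptor called lower, and neither motif occurs in the stretch shown.
TNFRSF9: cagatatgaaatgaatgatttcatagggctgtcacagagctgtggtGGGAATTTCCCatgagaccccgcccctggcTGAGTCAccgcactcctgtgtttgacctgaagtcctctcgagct
TNFRSF14: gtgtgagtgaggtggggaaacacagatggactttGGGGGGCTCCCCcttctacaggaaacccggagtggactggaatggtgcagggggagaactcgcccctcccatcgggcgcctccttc
LTB: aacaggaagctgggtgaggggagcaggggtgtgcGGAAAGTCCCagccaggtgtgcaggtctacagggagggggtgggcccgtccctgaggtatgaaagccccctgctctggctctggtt
TNFRSF21: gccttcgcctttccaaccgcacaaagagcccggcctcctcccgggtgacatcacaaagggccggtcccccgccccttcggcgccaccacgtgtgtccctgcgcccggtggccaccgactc

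Osteoprotegerin (TNFRSF11B), the soluble decoy that binds RANKL and TRAIL, was higher in KO by the next widest margin. Its signal was 1.64, 1.88 and 1.71 in VC and 4.43, 4.97 and 4.13 in KO. The KO libraries lay above the VC libraries by many times the spread within a group, with a log2 fold change of 2.77 ± 0.23 (SE), 6.80-fold, and an adjusted p of 0.00614. The gene lies on chromosome 8. The median log2 fold change was -0.32 for the 631 other tested genes there and -0.11 for genes of other chromosomes. Whether the chromosome had a part in this result was not tested.

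RANK (TNFRSF11A) was also higher, with 0.22, 0.14 and 0.21 in VC and 1.38, 0.67 and 0.90 in KO. The VC values were close together and the KO values were spread, with replicate 1 the highest. The difference was 0.79 ± 0.19 (SE), 1.73-fold, with an adjusted p of 0.0324. RANKL (TNFSF11) had values in 2 libraries alone, -7.36 in VC replicate 1 and -7.40 in KO replicate 3, and was not tested. The receptor and the decoy of the axis thus had a value in all 6 libraries, and the ligand in 2. Of 4 osteoclast markers, OSCAR was higher in KO by 4.22 ± 0.47 (SE, adjusted p of 0.00891) and CTSK was lower by a log2 fold change of -1.69 (adjusted p of 0.0352).

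TRAIL (TNFSF10) binds 2 death receptors, DR4 (TNFRSF10A) and DR5 (TNFRSF10B), and the decoys TNFRSF10C and TNFRSF10D, which resemble each other in sequence and all lie on chromosome 8, so reads may be shared between them and their values are uncertain to that extent. DR5 had 5.03, 5.03 and 5.02 in VC and 5.96, 6.11 and 5.93 in KO. The VC libraries were nearly equal, and the KO libraries were higher by 0.97 ± 0.076 (SE), or 1.96-fold, with an adjusted p of 0.00597. DR4 was higher by 0.48 ± 0.071 (SE), 1.39-fold, with 3.10, 2.98 and 3.07 in VC, 3.48, 3.57 and 3.54 in KO and an adjusted p of 0.0129.

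Neither TNFRSF10C nor TNFRSF10D was called. TNFRSF10C had -0.66, -1.28 and -1.59 in VC and -1.28, -2.58 and -1.72 in KO, with groups that overlapped, a difference of -0.68 ± 0.41 (SE) and an adjusted p of 0.242. TNFRSF10D had -5.00, -4.94 and -4.23 in VC and -4.35, -3.82 and -4.06 in KO, which also overlapped, with a difference of 0.64 ± 0.26 (SE) and an adjusted p of 0.108. TRAIL itself had a value in 2 VC libraries alone, -7.40 in replicate 1 and -7.32 in replicate 2, and in no KO library.

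Among the remaining death domain receptors, DR6 (TNFRSF21), a receptor known from neurons and T cells, was lower. It had 4.23, 4.26 and 4.21 in VC and 3.84, 3.19 and 3.56 in KO. All KO values were below the narrow range of the VC values, with a log2 fold change of -0.70 ± 0.17 (SE), 1.63-fold lower, and an adjusted p of 0.0346. DR3 (TNFRSF25), the receptor of TL1A (TNFSF15), had 2.32, 2.17 and 2.25 in VC and 2.19, 2.12 and 2.19 in KO, with an adjusted p of 0.420. TNFSF15 had 1 VC value of -8.59 and KO values of -8.57 and -6.56 in replicates 2 and 3.

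The 2 receptors of TNF were not called, and their differences had opposite signs. TNFRSF1A, the death domain receptor found on most cells, had 5.47, 5.38 and 5.41 in VC and 5.65, 5.62 and 5.53 in KO. The groups did not overlap, and the difference was 0.19 ± 0.071 (SE) with an adjusted p of 0.0940. TNFRSF1B, which lacks a death domain and binds TRAF2, had -2.32, -2.95 and -3.11 in VC and -3.31, -4.40 and -4.10 in KO, again without overlap, with a difference of -1.14 ± 0.36 (SE) and an adjusted p of 0.0585. Both calls depended on the setting. TNFRSF1B was called lower without KO replicate 1 (adjusted p of 0.0188) and under 2 other alternatives, and TNFRSF1A was called higher under 5 alternatives, with adjusted p-values from 0.0231 to 0.0399. TNF had 3 values, -6.60 in VC replicate 3 and -3.99 and -5.02 in KO replicates 1 and 2, and was not tested.

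Lymphotoxin-α (LTA) and lymphotoxin-β (LTB) form the ligand of LTBR, a receptor that feeds the non-canonical NF-kB pathway. LTBR was higher in KO by 0.33 ± 0.089 (SE), 1.26-fold, the smallest change among the called members, with 4.67, 4.44 and 4.62 in VC, 4.86, 4.96 and 4.91 in KO and an adjusted p of 0.0420. LTA had -4.14, -4.26 and -4.24 in VC and -3.87, -5.65 and -5.62 in KO. The KO values of LTA stood on both sides of VC, with replicate 1 above and the others below, and the adjusted p was 0.252, or 0.00362 without that library. LTB had -3.03, -2.45 and -1.99 in VC and -1.87, -2.28 and -2.85 in KO, with groups that overlapped and an adjusted p of 0.753.

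TWEAK (TNFSF12) is the ligand of FN14 (TNFRSF12A), a small receptor induced by growth factors and injury. TWEAK had -0.41, -0.74 and -0.27 in VC and 0.37, 0.41 and 0.08 in KO, without overlap. It was higher by 0.76 ± 0.16 (SE), 1.69-fold, with an adjusted p of 0.0248. FN14 had 7.37, 7.23 and 7.24 in VC and 7.52, 7.64 and 7.48 in KO, also without overlap, but its difference of 0.27 ± 0.082 (SE) had an adjusted p of 0.0581. FN14 was called higher under 6 alternatives, with adjusted p-values from 0.0163 to 0.0493. TWEAK shares its locus with a readthrough transcript into the next gene, listed as TNFSF12-TNFSF13, which was lower by a log2 fold change of -0.66 (adjusted p of 0.0281), and how reads of the shared exons were assigned is not given in the sources used here. Reads of these entries may therefore have been divided between them.

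TROY (TNFRSF19), a receptor of the nervous system and of stem cells, had 2.34, 2.45 and 2.37 in VC and 3.28, 3.47 and 3.19 in KO. Its libraries were tightly grouped, and the KO group was higher by 0.93 ± 0.098 (SE), 1.90-fold, with an adjusted p of 0.00847. The other receptor called was TNFRSF13C (BAFF receptor), a B cell survival receptor, with -1.66, -2.35 and -1.94 in VC and -1.04, -1.17 and -1.43 in KO. Its groups came close without touching, and the difference was 0.77 ± 0.21 (SE), 1.70-fold, with an adjusted p of 0.0424. TNFRSF13C lies on chromosome 22, where the median log2 fold change of the 446 other tested genes was 0.29, against -0.13 for other chromosomes. The part of the chromosome in these results was not tested.

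The ligands of the BAFF receptor group were not called. BAFF (TNFSF13B) had -4.02, -3.74 and -4.12 in VC and -3.61, -4.44 and -4.70 in KO, with an adjusted p of 0.489, which was 0.0385 without KO replicate 1. APRIL (TNFSF13) had -5.94, -5.89 and -6.02 in VC, -5.45 and -4.06 in KO replicates 1 and 2 and no value in replicate 3, with an adjusted p of 0.0993. Their receptor TNFRSF17 (BCMA) had -4.53 and -5.67 in VC replicates 2 and 3, -2.84 and -5.70 in KO replicates 1 and 2 and an adjusted p of 0.628, and TNFRSF13B (TACI) had a single value, -6.29 in KO replicate 1.

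CD40 and TNFRSF6B were tested and not called. CD40, the co-stimulatory receptor of B cells and dendritic cells, had -5.70 and -7.39 in VC and -7.40 and -7.35 in KO, with replicate 2 empty in both groups and an adjusted p of 0.391. TNFRSF6B (DcR3), the soluble decoy of FAS ligand, had 0.99, -0.74 and 0.59 in VC and -0.60, 0.26 and -1.13 in KO, with overlap and an adjusted p of 0.335. TNFRSF6B is also covered by a readthrough transcript from RTEL1, listed as RTEL1-TNFRSF6B, which had an adjusted p of 0.288. The entry RTEL1 itself was lower by a log2 fold change of -0.77 (adjusted p of 0.0126). Across the 15 tested members that were not called, the log2 fold change ranged from -1.14 to 1.20.

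In all, 9 members had fewer than 2 values in a group and were not tested, which were 6 ligands (TNF, TNFSF8, TNFSF10, TNFSF11, TNFSF14 and TNFSF15) and 3 receptors (TNFRSF4, TNFRSF8 and TNFRSF13B). The lymphocyte ligand TNFSF8 (CD30L) had -8.10 in VC replicate 3 and -8.09 in KO replicate 3. Its receptor TNFRSF8 (CD30) had -6.20 and -6.35 in VC replicates 2 and 3 and -6.88 in KO replicate 3. With so few values, whether these genes differ between the groups was not detectable here.

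Because each group had 3 libraries, each library was left out in turn and the fit over all genes repeated. TNFRSF14, TNFRSF9, TNFRSF10B, TNFRSF11B, TNFRSF19 and CD70 passed an adjusted p of 0.05 in all 6 fits, and the highest adjusted p among these was 0.0452, for CD70. The other called members lost the call in some or all fits. TNFRSF10A lost it without VC replicate 1 (adjusted p of 0.0501) and without VC replicate 3 (0.0554). TNFSF9 lost it without VC replicate 1 (0.0754), VC replicate 2 (0.0606) and KO replicate 3 (0.0673). TNFRSF11A and TNFRSF21 held it only without KO replicate 1 and without KO replicate 2, and reached 0.0900 and 0.0950 at most. For TNFSF12 the call remained only without KO replicate 1 and without KO replicate 3, and for LTBR only without KO replicate 1, with maxima of 0.0708 and 0.109. TNFSF18, which had no value in KO replicate 1, lost the call in each of the 3 fits that removed one of its values, with a maximum of 0.110. TNFRSF13C passed in no such fit. The share of all tested genes called higher moved with the library left out too, and was 4.07%, 5.62% and 3.51% when the VC libraries were dropped in replicate order, and 15.9%, 9.3% and 5.32% when the KO libraries were.

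**Figure D4:**
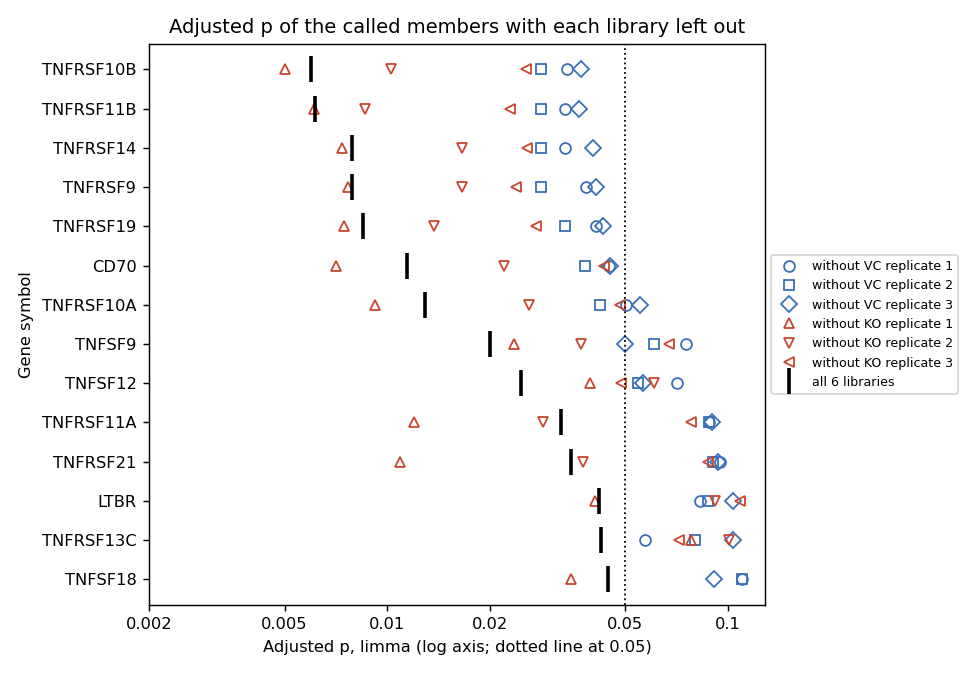
Adjusted p (log axis) of the 14 called members when each of the 6 libraries is left out, with the 0.05 threshold dotted. The 6 members called in every such fit stay to one side of the line, the highest of them at 0.0452, and TNFSF18 has 4 fits because too few KO values remain in the others.

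The superfamily genes that the rule on symbols leaves out were 9, with 5 tested. By limma's test 0 were higher and 1 was lower in KO, with the same counts at an unadjusted p under 0.05. The called shares of 0% and 20% stood beside 13.1% and 19.8% of all tested genes. The lower gene was EDA, the ectodysplasin ligand of skin appendage development, with a log2 fold change of -0.95 ± 0.21 (SE) and an adjusted p of 0.0261. EDA held the call in 1 of the 6 fits that left out a library, with a maximum adjusted p of 0.0823. FAS, a death domain receptor, differed by -0.087 with an adjusted p of 0.391, and its ligand FASLG had a single value, -4.69 in VC replicate 1.

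Genes for the proteins that carry the signal from the receptors were also counted. Of 33 receptor-proximal signalling genes, 32 were tested, 8 were higher and 4 were lower, or 37.5% called, which is near the 32.9% of all tested genes. By direction, 13.1% of all tested genes were higher and 19.8% were lower. The median log2 fold change of the list was -0.016, beside -0.13 over all tested genes. The higher genes with the widest change were BIRC3 (cIAP2, a ubiquitin ligase of TNF receptor complexes) at 2.81, TNFAIP3 (A20, a brake on NF-kB) at 1.81, its partner TNIP1 at 0.84, the deubiquitinase CYLD at 0.61 and RBCK1 of the linear ubiquitin complex at 0.49. The lower genes were MAP3K14 (NIK, the kinase of the non-canonical NF-kB pathway) at -1.59, the adaptor TRAF2 at -0.66, OTULIN at -0.56 and TRAF5 at -0.53. Adjusted p-values of these 9 genes lay between 0.00571 and 0.0393. BIRC3, TNFAIP3 and MAP3K14 were called in all 6 fits that left out a library, TNIP1 and CYLD in 4, OTULIN in 2, and RBCK1, TRAF2 and TRAF5 in 1.

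Membrane ligands and receptors of the family are released by proteases. Of 6 shedding genes, 3 were higher and 0 were lower by limma's test, beside 13.1% and 19.8% of all tested genes. At an unadjusted p under 0.05, 0 were lower, beside 30% of all tested genes. ADAM10 (-0.20), SPPL2B (-0.21) and RHBDF2 (-0.035) had negative differences and were not called. RHBDF1, a cofactor of the TNF-converting enzyme, was higher by 1.38 (adjusted p of 0.0111). The intramembrane protease SPPL2A was higher by 0.80 (adjusted p of 0.0207) and ADAM17, the TNF-converting enzyme itself, by 0.46 (adjusted p of 0.0312). RHBDF1 was called in all 6 fits that left out a library, and SPPL2A and ADAM17 in 2.

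Among 20 NF-kB subunits and textbook TNF-induced genes, 18 were tested, and 12 were higher and 0 were lower by limma's test, or 66.7% called. Of all tested genes, 32.9% were called, with 13.1% higher and 19.8% lower. At an unadjusted p under 0.05, 13 were higher and 1 was lower (all tested genes: 17.8% and 30%). The median log2 fold change of the 18 tested genes was 1.51, beside -0.13 over all tested genes. The gene lower at an unadjusted p under 0.05 was SOD2, at -0.37 with an adjusted p of 0.0907. Also not called were REL at 0.019, TNFAIP2 at 0.15, IL6 at 0.54, TRAF1 at 1.13 and CXCL2 at 1.51. Their adjusted p-values lay between 0.0512 and 0.912. VCAM1 and SELE had a value in 1 library each and were not tested. The widest changes were in the adhesion molecule ICAM1 at 2.84 (adjusted p of 0.00597), BIRC3, the neutrophil chemokine CXCL8 at 2.64 (0.0117), the NF-kB subunit RELB at 2.17 (0.00597) and the monocyte chemokine CCL2 at 2.16 (0.0165). CCL2 was called in 4 of the 6 fits that left out a library, and ICAM1, BIRC3, CXCL8 and RELB in all 6. BIRC3, TRAF1 and TNFAIP3 stand in this list and in the signalling list, so the 2 counts are not separate.

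**Figure D5:**
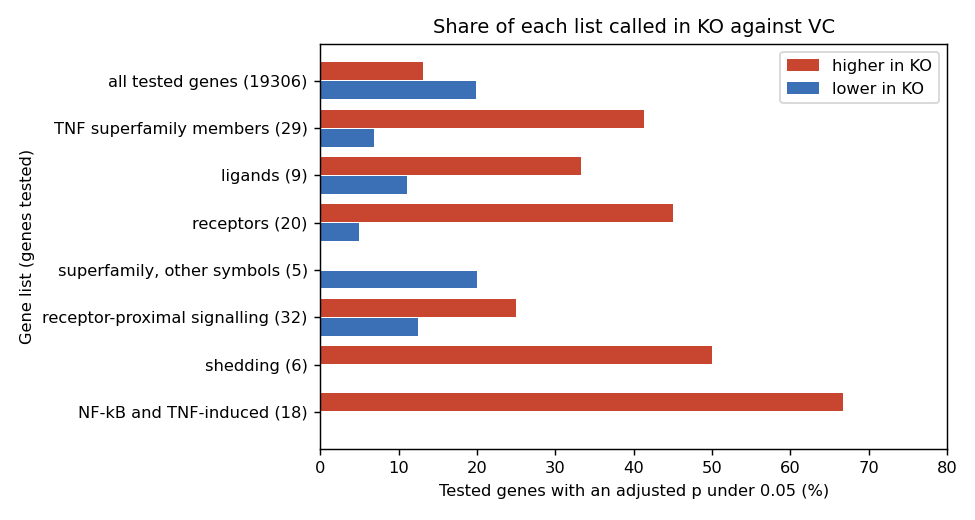
Percent of tested genes called higher and lower in KO for all genes, the members, ligands and receptors, and the related gene lists. The members had 41.4% higher and 6.9% lower, beside 13.1% and 19.8% of all tested genes.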

How the data were processed

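RNA of 3 VC and 3 CNTNAP4 KO samples of 143B cells was sequenced, and groups and replicate numbers were taken from the labels. Per the labels, libraries were made with a stranded mRNA kit from TRIzol extracts. The submitters' processing notes name CASAVA, STAR, Partek and GRCh38.p13, while the methods describe sequencing of total RNA (Illumina NextSeq) and analysis in CLC and Partek software. The authors deposited 1 table of log2 signals with nearly identical sorted values in the 6 libraries, so the signals had been quantile-normalized. Such scaling can hide a shift of most genes. The linear unit, read counts and software versions are not given in the sources used here, so the depth is unknown and no counting interval was computed. No column of other samples was used.

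No normalization was added. The test was limma's (version 3.58.1, R 4.3.3), a linear model with empirical Bayes moderation and no trend, two-sided and adjusted by Benjamini-Hochberg over 19306 genes, namely those that kept 2 or more values per group. Genes with an adjusted p under 0.05 were called. Gene names are those of the table, and chromosomes and promoter windows came from RefSeq tables (GRCh38.p14) matched by symbol, with 38 of 38 members placed. Tables were handled in Python 3.11.15 with pandas 2.3.3 and drawn with matplotlib 3.10.9. All members are accounted for. Values in every library are given for called members and for the RANKL, TRAIL, TNF and lymphotoxin, and TWEAK groups, and the values of other members not called were added for completeness. From each related list, up to 5 called genes per direction with the widest change are named. The members and lists were chosen with earlier results of these data known, so none of these counts is independent support. Replicate numbers were checked for pairing, and 14 alternatives to the fit were run. Not every marker of the lists is reported here.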

Additional observations from a re-analysis of the deposited data

How the results depend on the processing

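The counts of calls depended on the libraries and the fit. When each library was left out in turn, 1223 to 8669 of all genes were called, against 6354 with all libraries. Of all genes, 654 to 2940 were called higher and 569 to 5729 lower. The members called higher numbered 6 to 11 and lower 0 to 5, and the signalling genes called numbered 3 to 15. Same-numbered VC and KO samples did not deviate together (correlations of 0.023, 0.0051 and -0.0074), so the numbers do not pair the samples. A fit with the replicate number as a block called 1533 genes, of which 594 were higher (3.08% of those tested) and 939 lower, and 3 signalling genes. It called 5 members higher and 1 lower, with the single lower member being TNFRSF1B. Among genes in the upper 50% of mean signal, 8 of 10 members were higher and 1 lower, beside 2263 and 3439 of 9653 genes. Genes with 6 values gave 13 and 1, beside 2632 and 4153 of 17698. Median-centred libraries gave 15 and 1, beside 3005 and 3233 of 19306. With 1 added to the linear signal, the counts were 14 and 1, beside 2988 and 4785. With empty cells also set to 0, they were 14 and 2, beside 2733 and 4218 of 24697. Moderation with trend and robust estimation gave 14 and 3, beside 2999 and 4924 of 19306. Without variance moderation by limma, 8 were higher and 0 lower, beside 1990 and 2442, and 3 were lower at an unadjusted p under 0.05. No called member changed sign in the alternatives that tested it. The groups of these members did not overlap, so leaving out a library could not turn a sign. Among genes in the upper 50% of mean signal, 7 of the 14 called members were tested. Signs turned for members that were not called, with TNFRSF18 at 0.066 and TNFRSF25 at 0.0029 in median-centred libraries, TNFRSF17 at -1.17 under the block, and LTB at -0.11 without VC replicate 1 and -0.069 without KO replicate 1, in a range of -0.11 to 0.42 over the libraries left out. With 1 added, differences of low signals shrank, as for TNFRSF9 to 0.55 and TNFRSF14 to 0.24, both still called, and TNFSF18 to -0.18 with an adjusted p of 0.0511. The median of all genes moved from -0.13 to -0.023 with 1 added, to -0.0066 with empty cells also set to 0, and to -0.042 with centring, where 3005 of 6238 calls were higher, against 2526 of 6354. The cause of these shifts was not tested, and the unknown depth limits what can be said of members with low signals.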
